A study of Mus musculus with 12 samples.

Results

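Bcl11b and Fibcd1, a pair of genes used as markers of neuron identity in the mouse hippocampus, were followed in 12 arrays. Their members were all probe sets of the table annotated to one of these genes alone, which gave 3 probe sets for Bcl11b (116568_at, 117168_at and 109517_at) and 1 for Fibcd1 (116464_at), 4 of 12411 in all (2 of 7542 genes). The samples were hippocampal total RNA from 5 to 6 week-old littermates of both sexes, handled for 5 days and killed 1 h after an intraperitoneal injection. They formed 4 groups of 3 arrays: mutant animals given kainate at 20 mg/kg, control animals given kainate at that dose, mutant animals given saline, and control animals given saline. RNA of 3 animals was pooled for every array, and no value belongs to a single animal. Kainate is a glutamate receptor agonist that evokes seizures. The series title names loss of the cAMP-responsive transcription factors CREB and CREM, and the labels call the animals only mutant or control. The sources used here do not give the promoter that drives any deletion, or the strain.

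Bcl11b, also called Ctip2, encodes a zinc finger transcription factor that works with chromatin complexes of the BAF and NuRD types. It is known for specifying deep-layer cortical projection neurons and striatal neurons, and in the hippocampus it marks CA1 pyramidal neurons and dentate granule cells, where it is needed for granule cell maturation. Fibcd1 encodes a transmembrane receptor with an extracellular fibrinogen-like domain that binds acetylated sugars and chondroitin sulfate, and in the mouse hippocampus its transcript is a marker of CA1 pyramidal neurons.

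Since the series concerns CREB, the promoter stretches of both genes are shown with matches to the CREB half-site TGACG in capitals (CGTCA where the match lies on the other strand). Both are the 250 bases before the transcription start in the RefSeq promoter table (GRCm38.p6, minus strand), at chr12:108003415-108003664 for Bcl11b and chr2:31846006-31846255 for Fibcd1.
Bcl11b: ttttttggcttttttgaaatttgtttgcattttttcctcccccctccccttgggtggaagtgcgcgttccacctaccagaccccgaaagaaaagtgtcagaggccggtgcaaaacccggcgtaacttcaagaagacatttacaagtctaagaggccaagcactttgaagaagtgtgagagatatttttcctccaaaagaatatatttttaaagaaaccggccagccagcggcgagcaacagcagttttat
Fibcd1: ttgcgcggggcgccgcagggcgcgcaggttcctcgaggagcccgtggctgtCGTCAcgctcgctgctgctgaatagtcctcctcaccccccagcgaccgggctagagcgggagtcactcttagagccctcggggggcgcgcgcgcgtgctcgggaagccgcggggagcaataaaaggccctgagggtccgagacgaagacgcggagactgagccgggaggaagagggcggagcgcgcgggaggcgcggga
The full palindrome TGACGTCA, which contains the half-site on both strands, was in neither stretch and is in 1.55% of 32851 such promoters. The half-site TGACG was absent from the Bcl11b stretch and occurred 1 time in that of Fibcd1, on the other strand, starting 199 bases before the transcription start. Of all the promoters, 17.8% hold it on either strand. The GC content was 44.8% for Bcl11b and 71.6% for Fibcd1, against a median of 52.4%. These matches describe letters in a short window and not binding.

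Values are GCRMA summaries on a log2 scale, so a difference of 1 is a doubling. Array medians lay between 3.77 and 4.07. The Creb1 probe set was higher in the labelled mutant arrays, at 7.97 ± 0.439 after kainate and 8.23 ± 0.117 with saline, against 6.98 ± 0.154 and 7.35 ± 0.35 in the control arrays of the same treatments (SD, n = 3 each). The Crem probe set had group means from 2.93 to 3.16. Neither therefore shows the loss named in the title, and every genotype direction below rests on the labels, so the arrays are called labelled mutant. The labels number the replicates without stating a pairing. Arrays of the same number were taken as pairs because they deviated together. Values from a fit with the number as a block (the block) are given as well. Of genes for excitatory neurons in general, the vesicular glutamate transporter gene Slc17a7 had group means from 10.7 to 10.8. The calcium-binding protein gene Calb1, a dentate and CA1 marker, had means from 7.06 to 7.41. Only 4 of the 8 dentate granule genes on the array reached the level required for testing, the lowest being Stxbp6 at 4.26 to 4.50. The hippocampal identity of the tissue rests on the labels. Of 14 further CA1 markers, 2 were on the array (Mpped1 and Man1a), and their means of 1.58 to 2.55 were under the level required for testing, so no gene of that CA1 list could be set beside Fibcd1.

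Averaged over treatments, the Bcl11b probe set 116568_at was 1.79-fold and Fibcd1 1.53-fold lower in labelled mutant than in control hippocampus. Neither passed the test over 6334 probe sets without the replicate number in the fit, and both passed with it. The second Bcl11b probe set lay in the same direction without passing, and the third had little signal.

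The Bcl11b probe set 116568_at read 7.16, 6.90 and 6.94 in labelled mutant kainate arrays 1, 2 and 3, against 7.85, 7.87 and 7.60 in control kainate arrays. With saline it read 7.36, 6.85 and 6.52 in labelled mutant arrays, against 8.12, 7.76 and 7.58 in control arrays. All 6 labelled mutant values therefore lay below all 6 control values, a separation that 0.663% of tested probe sets showed in this direction. The mean difference was -0.77 after kainate (95% interval -1.24 to -0.30) and -0.91 with saline (-1.38 to -0.44). By limma with Benjamini-Hochberg adjustment over all tested probe sets, the adjusted p was 0.654 after kainate and 0.458 with saline. With the replicate number as a block it was 0.0677 and 0.0423, so the saline difference passed in that fit, in which 0.126% of probe sets passed as lower. Averaged over treatments the difference was -0.84 (SE 0.15, adjusted p = 0.0557), a fall that the blocked fit called (adjusted p = 0.00319). In the averaged comparison 0.253% of probe sets passed without the block (0.189% as lower) and 2.32% with it (1.52% as lower). Over all tested probe sets 0.0632% passed after kainate and 0% with saline without the block, and 0.111% and 0.142% with it. By p-value this probe set stood 22nd of 6334 without the block and 6th with it.

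The Bcl11b probe set 117168_at read 5.30, 6.29 and 5.86 in labelled mutant kainate arrays, against 5.71, 6.64 and 6.43 in control kainate arrays. With saline it read 5.37, 5.50 and 5.21 in labelled mutant arrays, against 5.64, 6.29 and 5.61 in control arrays. The saline groups did not overlap, as in 4.33% of tested probe sets in this direction, whereas the kainate groups did. Every one of the 6 comparisons between arrays of the same number and treatment was lower in the labelled mutant array, which held for 6.52% of tested probe sets. The averaged difference was -0.46 (1.38-fold, SE 0.212, 95% interval -0.93 to 0.01) and did not pass (limma adjusted p = 0.782, with the block 0.116). That interval, from the fit without the block, includes both 0 and the size seen with 116568_at. With the block the interval was -0.75 to -0.18, which includes neither.

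The Bcl11b probe set 109517_at lay close to the array medians, from 3.79 to 4.63, and exceeded 4 in 9 of 12 arrays. It read 3.79, 4.20 and 4.40 in labelled mutant kainate arrays, against 4.23, 4.63 and 4.59 in control kainate arrays. With saline it read 3.90, 4.14 and 4.36 in labelled mutant arrays, against 4.14, 4.18 and 3.97 in control arrays, and both pairs of groups overlapped. Its averaged difference was -0.16 (95% interval -0.44 to 0.12, limma adjusted p = 0.999, with the block 0.532). Its differences by treatment were -0.36 after kainate and 0.04 with saline. With the block the interval after kainate was -0.65 to -0.06, and the difference did not pass (limma adjusted p = 0.322). The sources used here do not say where on the Bcl11b transcripts these probe sets lie, and the difference between them was not tested.

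The Fibcd1 probe set read 7.93, 8.67 and 8.36 in labelled mutant kainate arrays, against 8.77, 9.09 and 9.10 in control kainate arrays. With saline it read 8.20, 8.01 and 7.82 in labelled mutant arrays, against 8.69, 8.56 and 8.48 in control arrays. The groups did not overlap with either treatment, which 7.63% of tested probe sets showed as lower after kainate and 4.33% with saline. The difference was -0.67 after kainate (95% interval -1.08 to -0.25) and -0.56 with saline (-0.98 to -0.15), and neither passed (limma adjusted p = 0.746 and 0.938, with the block 0.175 and 0.339). Averaged over treatments it was -0.61 (SE 0.133, adjusted p = 0.101), a fall that the blocked fit called (adjusted p = 0.0328). Quantile normalization added to the block left it just outside (adjusted p = 0.0508). By p-value Fibcd1 was 52nd of 6334 without the block and 100th with it.

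**Figure D1:**
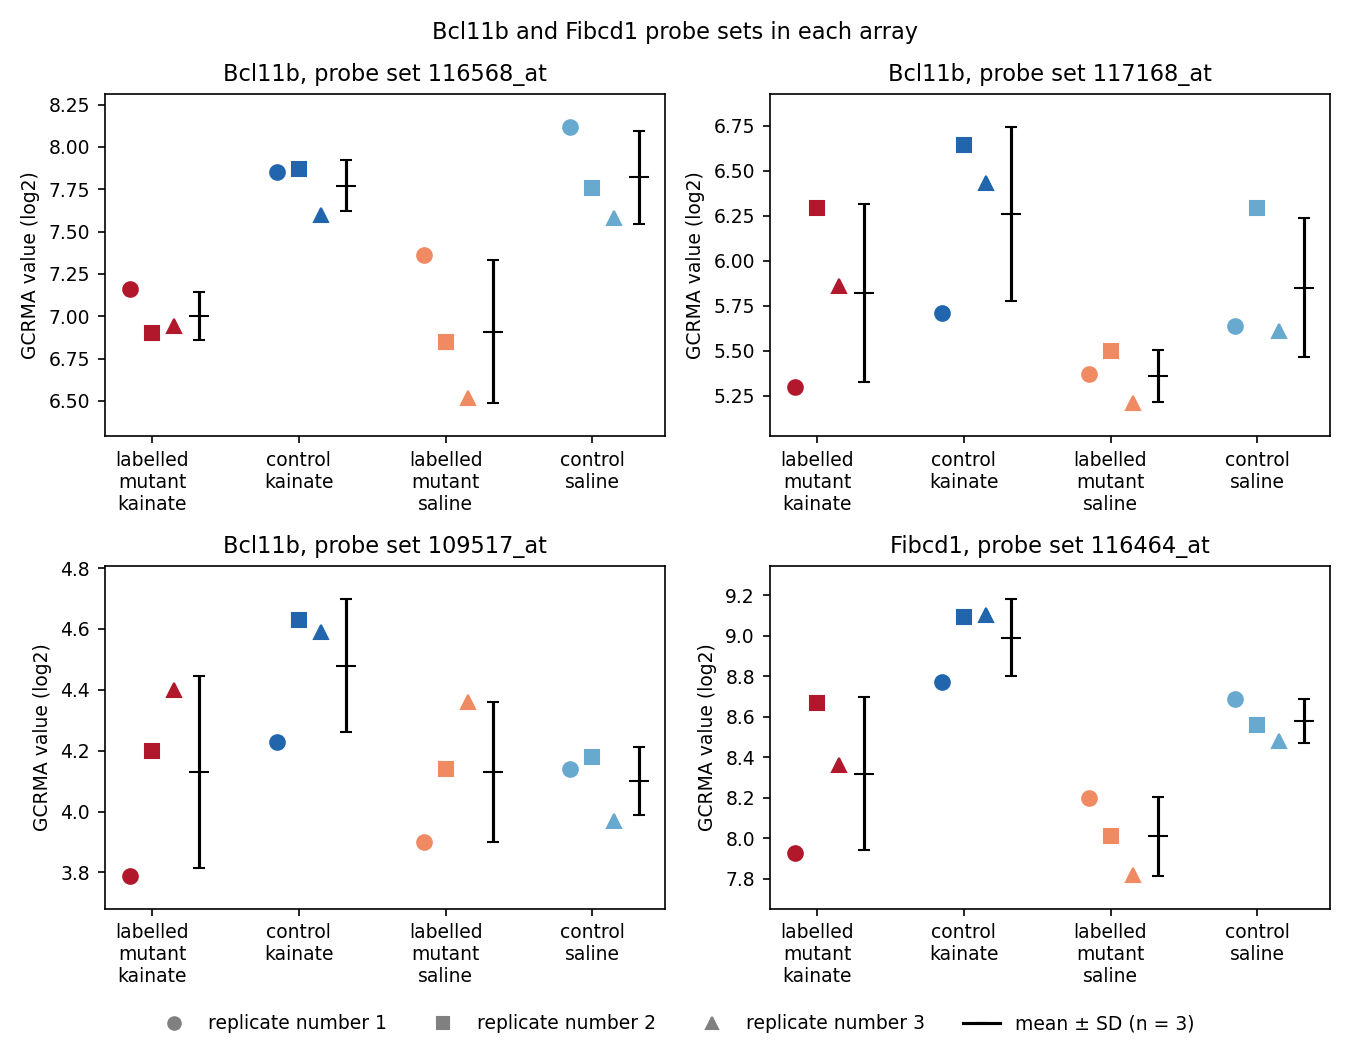
Log2 GCRMA values of the 4 probe sets in each of the 12 arrays, by group (x axis). Point shapes give the replicate number, and black bars give the mean ± SD of 3 arrays. For Bcl11b 116568_at all labelled mutant values lie below 7.58, the lowest control value, and for 109517_at the groups overlap except that control kainate lies above control saline.

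Both probe sets that passed with the block were lower in every replicate number, as 6.52% of tested probe sets were. Passing with the block itself favours probe sets whose differences are alike across numbers. For Bcl11b 116568_at, labelled mutant minus control was -0.68, -0.97 and -0.66 in numbers 1, 2 and 3 after kainate, and -0.76, -0.92 and -1.06 with saline. For Fibcd1 it was -0.84, -0.42 and -0.74 after kainate and -0.49, -0.55 and -0.66 with saline. When the arrays numbered 1 were left out, the averaged differences were -0.90 for Bcl11b 116568_at (adjusted p = 0.00881) and -0.59 for Fibcd1 (adjusted p = 0.0337), and both passed without a block, as did 0.726% of all tested probe sets.

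**Figure D2:**
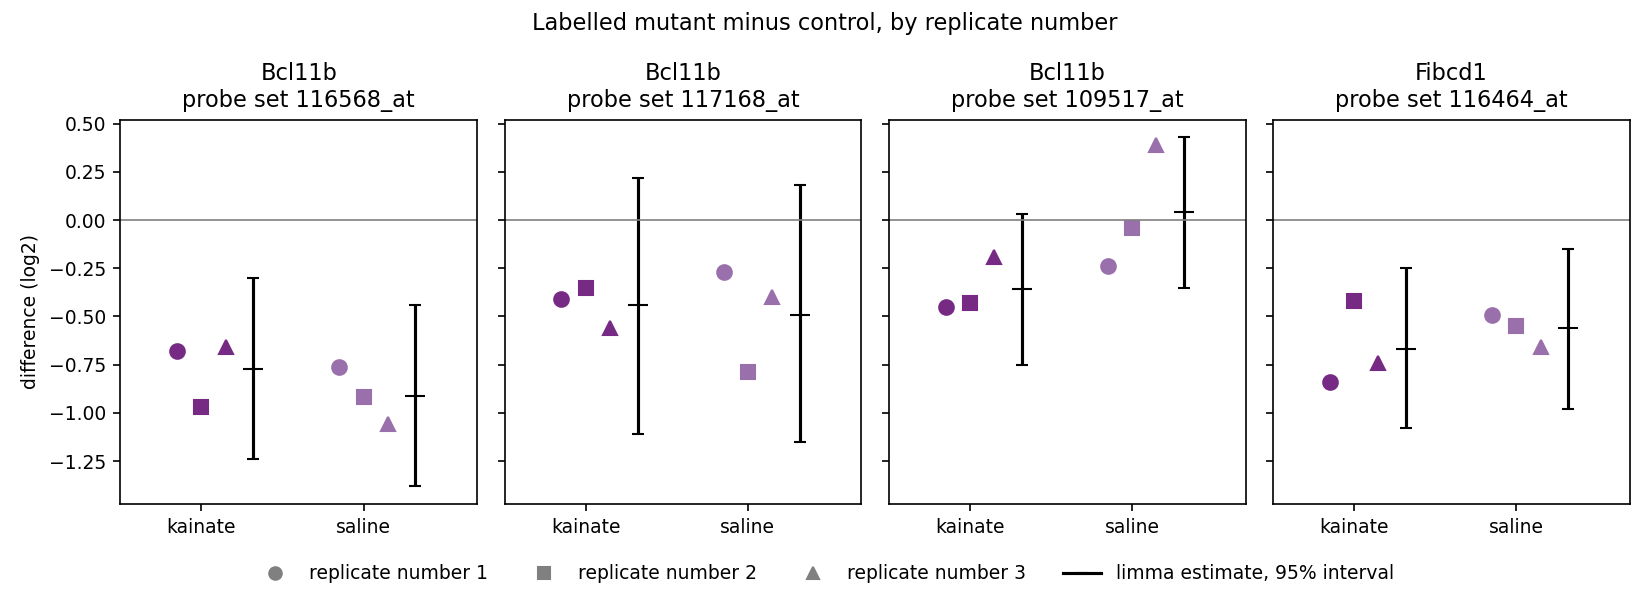
Labelled mutant minus control (log2, y axis) for each replicate number after kainate and with saline, for the 4 probe sets. Black bars give the limma estimate with its 95% interval. All 6 points lie below 0 for Bcl11b 116568_at, Bcl11b 117168_at and Fibcd1, and 5 of 6 for Bcl11b 109517_at.

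In order of group mean, Bcl11b 116568_at was lowest in labelled mutant saline arrays (6.91 ± 0.422), then labelled mutant kainate (7.0 ± 0.142), control kainate (7.77 ± 0.151) and control saline (7.82 ± 0.272; SD, n = 3 each). Neighbours within a genotype overlapped, and the genotypes did not. For Fibcd1 the order was labelled mutant saline (8.01 ± 0.193), labelled mutant kainate (8.32 ± 0.376), control saline (8.58 ± 0.107) and control kainate (8.99 ± 0.19). Its control groups did not overlap, while labelled mutant kainate overlapped both labelled mutant saline and control saline. Bcl11b 117168_at had the same order, with labelled mutant kainate (5.82 ± 0.495) and control saline (5.85 ± 0.386) at nearly the same mean. For 109517_at control kainate was highest (4.48 ± 0.218) and the other groups were close together.

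Kainate against saline gave no difference that passed for any of the 4 probe sets, with or without the block. Fibcd1 was higher by 0.31 in labelled mutant arrays (95% interval -0.11 to 0.73, limma adjusted p = 0.887) and by 0.41 in control arrays (-0.01 to 0.83, adjusted p = 0.424). Bcl11b 117168_at gave similar sizes, 0.46 (-0.21 to 1.12, adjusted p = 0.92) and 0.41 (-0.25 to 1.08, adjusted p = 0.54). For Bcl11b 116568_at the differences were near 0, at 0.09 (-0.38 to 0.57) in labelled mutant and -0.05 (-0.52 to 0.42) in control arrays. Bcl11b 109517_at was at -0.01 (-0.40 to 0.38) in labelled mutant and 0.39 (0.00 to 0.78, adjusted p = 0.424) in control arrays. Over all tested probe sets 0.174% passed in labelled mutant and 0.158% in control arrays, with the block 0.363% and 0.584%, and averaged over genotypes 0.41% without and 7.63% with the block. The values of 109517_at and Fibcd1 in control kainate arrays all lay above those in control saline arrays, as for 13.1% of tested probe sets.

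The kainate difference of Fibcd1 and of Bcl11b 117168_at came from replicate numbers 2 and 3. For Fibcd1 it was 0.66 and 0.54 in labelled mutant arrays 2 and 3 and 0.53 and 0.62 in control arrays 2 and 3, but -0.28 and 0.08 in those numbered 1. For Bcl11b 117168_at it was 0.79 and 0.65 in labelled mutant and 0.35 and 0.82 in control arrays 2 and 3, against -0.07 and 0.07 in number 1. Without the arrays numbered 1, Fibcd1 passed in labelled mutant (0.60, limma adjusted p = 0.024) and in control arrays (0.58, adjusted p = 0.0281). In that fit of 8 arrays Bcl11b 109517_at passed in control arrays (0.54, adjusted p = 0.0471), and 117168_at passed when averaged over genotypes (0.65, adjusted p = 0.0233). That fit passed far more probe sets in all, 596 (9.41%) in labelled mutant arrays, 637 (10.1%) in control arrays and 1412 (22.3%) averaged over genotypes, against 11, 10 and 26 with all arrays. What sets the arrays numbered 1 apart is not given in the labels.

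**Figure D3:**
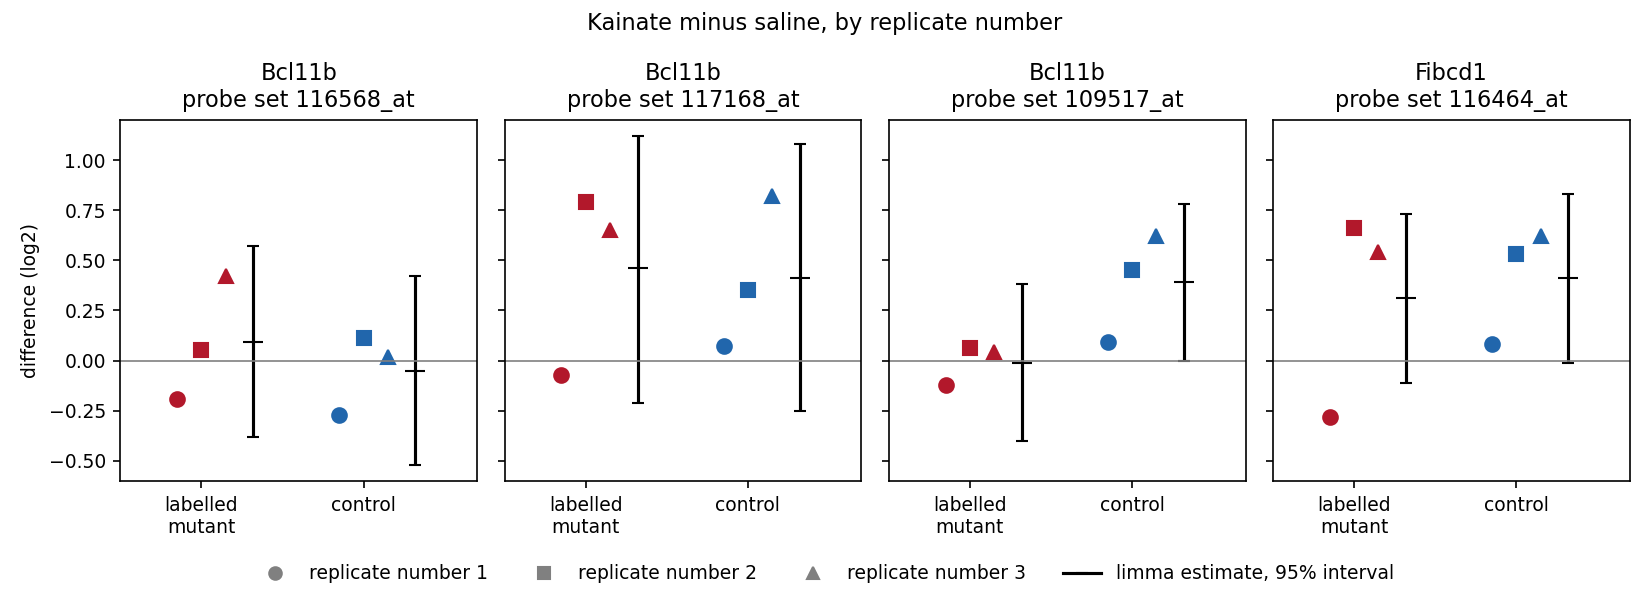
Kainate minus saline (log2, y axis) for each replicate number in labelled mutant and control arrays, for the 4 probe sets. Black bars give the limma estimate with its 95% interval. For Fibcd1 and Bcl11b 117168_at the points of number 1 lie between -0.28 and 0.08 and those of numbers 2 and 3 between 0.35 and 0.82.

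Whether the kainate response differed between genotypes was tested directly. The difference of responses, labelled mutant minus control, was -0.10 for Fibcd1 (95% interval -0.69 to 0.49) and 0.14 for Bcl11b 116568_at (-0.52 to 0.81). It was 0.04 for Bcl11b 117168_at (-0.89 to 0.98) and -0.39 for 109517_at (-0.95 to 0.16). None passed (limma adjusted p = 1 for each, and from 0.554 to 0.972 with the block), and 0% of all probe sets passed with or without the block, although 147 without it and 566 with it had an unadjusted p under 0.05. For Bcl11b 116568_at this interval does not reach the size of its averaged genotype difference (-0.84) in either direction, whereas the interval of Fibcd1 includes that of its own (-0.61).

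Few other genes of hippocampal neurons were measured. None passed in a genotype comparison, which at a share of 0.253% of all probe sets without the block and 2.32% with it, averaged over treatments, says little of so few genes. Beside Slc17a7 (averaged difference 0.01), the excitatory list held Neurod2, a neuronal bHLH transcription factor, at -0.40 (SE 0.221, limma adjusted p = 0.928, with the block 0.27), lower in all 6 pairs. It also held Zbtb20, a repressor that specifies CA1 fate, at -0.08 (other probe sets -0.10, -0.15 and -0.19). The median over these 3 genes was -0.08 (-0.13 with the probe sets of each gene averaged), against 0.00 over all tested probe sets. Of 15 dentate granule genes 4 were tested, with a median of 0.01. Among them were the guanine exchange factor gene Dock10 at 0.20, Calb1 at -0.08 (second probe set -0.15) and the SNARE-binding gene Stxbp6 at 0.01. Of 12 CA3 genes 4 were tested, with a median of -0.04 (0.03 with the probe sets of each gene averaged). Among them were the zinc finger gene Trps1 at 0.14 (other probe sets -0.11 and 0.33) and the cytokine signalling suppressor gene Socs2 at -0.09. The adhesion gene Nectin3 was at -0.05 (second probe set 0.21). The 4 tested genes of the subiculum and deep cortex list all lay below 0 (median -0.14), and the widest was Slc17a6, a second vesicular glutamate transporter, at -0.45 (adjusted p = 0.787). The striatum, which expresses Bcl11b strongly and lies outside the dissected tissue, was represented by 3 tested genes. These were Foxp1 at -0.24, Ppp1r1b at 0.21 and Pde10a at -0.08 (second probe set -0.27). Their median was -0.08, or -0.18 with the probe sets of each gene averaged. The mean level of these 3 genes overlapped between genotypes. It was 6.67 to 7.07 in labelled mutant kainate arrays and 6.73 to 6.97 in control kainate arrays. With saline it was 6.55 to 6.83 in labelled mutant and 6.60 to 6.89 in control arrays. In bulk RNA, fewer cells of a type and less RNA per cell cannot be told apart.

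Some markers of microglia and astrocytes were higher in labelled mutant arrays. The lists were chosen with earlier results of these data known. The counts of genes that passed and the mean levels of the lists are therefore descriptive only. Of 4 tested microglial genes, the cytoskeletal regulator gene Plek was higher by 1.24 on average over treatments and passed (limma adjusted p = 0.042, with the block 0.00807). The secreted glycoprotein gene Olfml3 (0.62) and the lectin gene Siglech (0.61) passed with the block alone (adjusted p = 0.0311 and 0.0313), and Tmem119 was at 0.10. Over all tested probe sets 0.0632% passed as higher without the block and 0.805% with it. The mean level of the 4 microglial genes did not overlap between genotypes. It was 6.33 to 6.57 in labelled mutant kainate and 5.72 to 5.88 in control kainate arrays. With saline it was 5.89 to 6.35 in labelled mutant and 5.50 to 5.64 in control arrays. Of single tested probe sets, 3.09% after kainate and 4.48% with saline lay higher in labelled mutant arrays without overlap. No such share was computed for means of 4 genes, so the separation of the microglial mean has no like background. Of 9 tested astrocyte genes none passed without the block and 3 passed as higher with it, which 0.805% of all tested probe sets did. These were the water channel gene Aqp4 (0.44, adjusted p with the block = 0.0196), Mlc1, which encodes an astrocyte membrane protein (0.36, 0.024), and the endothelin receptor gene Ednrb (0.36, 0.0198). The astrocyte mean level was 8.70 to 9.23 in labelled mutant kainate and 8.51 to 9.03 in control kainate arrays, and 8.76 to 9.45 in labelled mutant saline and 8.53 to 9.18 in control saline arrays, so it overlapped. All 4 microglial genes on the array, of 10 listed, and all 9 astrocyte genes, of 12 listed, were tested. Of these Aldoc lay near the array medians in every group, with group means of 3.83 to 4.07. Plek lay not far above them in control arrays, at 4.24 with saline and 4.67 after kainate. In labelled mutant arrays Plek was at 5.37 and 6.01. The Glul probe set split by replicate number rather than by group. The part of these cell types in the lower Bcl11b and Fibcd1 values was not tested. Interneuron genes had a median of 0.24 over 3 genes, oligodendrocyte genes -0.06 over 2, choroid plexus genes 0.24 over 2, CA2 genes 0.15 over 2 and hilar mossy cell genes 0.03 over 2, and none of them passed in a genotype comparison.

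**Figure D4:**
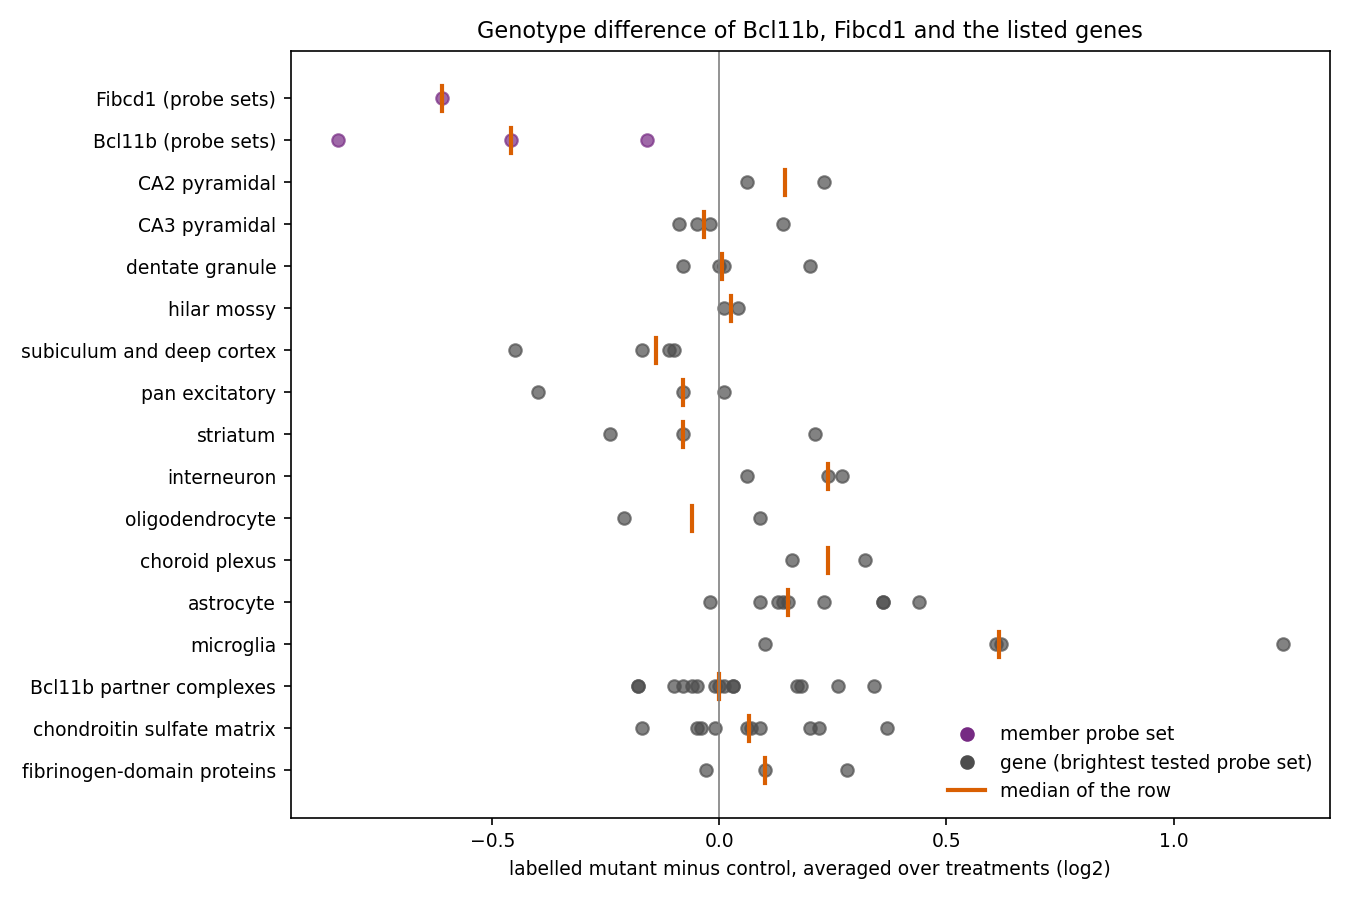
Labelled mutant minus control, averaged over treatments (log2, x axis), for the Bcl11b and Fibcd1 probe sets (purple) and for the tested genes of 15 lists (grey, each by its brightest probe set), with the median of each row in orange. The Bcl11b and Fibcd1 points lie from -0.84 to -0.16. The medians of the CA3, dentate granule and excitatory lists lie from -0.08 to 0.01, and that of the subiculum and deep cortex list at -0.14. Single neuronal genes lie lower, with Neurod2 at -0.40 and Slc17a6 at -0.45. The microglial genes reach 1.24.

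The tests of genes for molecular partners can be read only against the low share of all probe sets that passed averaged over treatments (0.253% without the block and 2.32% with it). Of 40 listed genes that encode the paralogue, BAF or NuRD complex subunits and the deacetylase Sirt1, 15 were tested, none passed, and the median of the averaged genotype difference was 0.00. The paralogue gene Bcl11a was at -0.06 (second probe set -0.23), with group means of 9.40 and 9.49 in labelled mutant and control kainate arrays and 9.16 and 9.19 in labelled mutant and control saline arrays. The widest were Smarcc1, a BAF core subunit, at 0.34 (SE 0.175, limma adjusted p = 0.862), the NuRD subunit gene Mta3 at 0.26, and Arid1b, a DNA-binding BAF subunit gene, at -0.18. Of 38 genes of the chondroitin sulfate matrix, to which the Fibcd1 ligand belongs, 10 were tested, none passed, and the median was 0.07. The widest of them were Cd44, a hyaluronan receptor gene, at 0.37 (SE 0.153, adjusted p = 0.714) and Chsy1, a chondroitin synthase gene, at 0.22. The other genes for proteins with a fibrinogen-like domain, 3 of which were tested, had a median of 0.10.

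The array-to-array patterns of both genes were compared with those of 5924 other probe sets with 1 gene symbol, by Pearson correlation over 12 arrays after the mean of each replicate number was taken off. The points share their number, genotype and treatment, so the values describe likeness and carry no test. Fibcd1 was 2nd among all probe sets in likeness to Bcl11b 117168_at (r = 0.937), after the G protein subunit gene Gng7 (0.941, but 0.509 as deposited). In the values as deposited Fibcd1 was 13th (r = 0.849). In likeness to Fibcd1, in turn, 117168_at was 8th, and 23rd as deposited. The others nearest to 117168_at were Coa5 (0.936), 2010204K13Rik (0.936) and Rap1gds1 (0.933), at 0.902, 0.765 and 0.619 as deposited. Between Fibcd1 and 117168_at r was 0.826 with number and group means both taken off, and 0.748 with only the group means off. Between Fibcd1 and Bcl11b 116568_at it was 0.82 with the number means off, 0.713 as deposited, 0.615 with both off and 0.177 with only the group means off. Between the Bcl11b probe sets 116568_at and 117168_at it was 0.719 with the number means off, 0.406 as deposited, 0.698 with both off and -0.163 with only the group means off. The likeness of 116568_at to the other probe sets therefore depended on which means were removed.

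Nearest to Fibcd1 were the neurexin ligand gene Nxph3 (r = 0.968), the small nuclear RNA transcription subunit gene Snapc5 (0.956), Gng7 (0.949), the CaM kinase inhibitor gene Camk2n2 (0.944) and Pcnx2 (0.943). All had averaged genotype differences between -0.65 and -0.31, a direction that the choice by likeness to Fibcd1 largely fixes. None of them passed without the block, and Snapc5 alone passed with it (limma adjusted p = 0.0164). Without removal of the number means, r was 0.463 for Nxph3 and 0.315 for Pcnx2, while Snapc5 ranked first (0.951). Nearest to Bcl11b 116568_at were Tspyl3, of the nucleosome assembly protein family (0.964), the RNA-binding protein gene Celf2 (0.963), Fahd2a (0.951), the P-body microprotein gene Nbdy (0.942), and the sorting nexin gene Snx32 (0.929). As deposited these were at 0.966, 0.96, 0.883, 0.789 and 0.93. Their averaged genotype differences ran from -1.27 (Tspyl3) to -0.38 (Snx32), a direction that the choice by likeness to 116568_at largely fixes. Tspyl3, Fahd2a and Nbdy passed without the block (limma adjusted p = 0.0151, 0.0151 and 0.00343), as did 0.253% of all tested probe sets. With the block these and Celf2 (0.00893) passed and Snx32 (0.0533) did not, against 2.32% of all that passed. Most opposite to Fibcd1 were Rragd (-0.954), Enox2 (-0.953) and Dkc1 (-0.95), at -0.84, -0.891 and -0.852 as deposited. Most opposite to Bcl11b 116568_at were the deubiquitinase gene Bap1 (-0.906), the TGF-beta receptor gene Tgfbr1 (-0.901) and Dop1a (-0.901), but as deposited these were at -0.476, -0.605 and -0.121.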

How the data were processed

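RNA of 12 pools of mouse hippocampi was hybridised to Affymetrix MG-U74B arrays, 3 in each of 4 groups. The deposited table holds log2 values, 1 per probe set and array, which the authors made with GCRMA under R 2.4.1 (per the submitters' processing notes). The sources used here give neither the settings nor a genome build. The log2 scale was judged from the values (-1.05 to 13.3 without 66 Affymetrix control entries). Gene names came from the platform annotation (10581 probe sets with 1 symbol, 178 with several, 1652 with none). Probe sets over 4 in at least 3 arrays were tested (6334, including all 4 of Bcl11b and Fibcd1) with limma 3.58.1 in R 4.3.3, 1 mean per group over 12 arrays, eBayes with an intensity trend and Benjamini-Hochberg adjustment at 0.05 within each of 7 comparisons. The fit was checked on simulated data. The labels give shared numbers 1 to 3 without saying what they stand for, and call the replicates biological. Arrays of one number deviated together from their group means in all 18 pairs (r from 0.361 to 0.881, each above 0.1). Between arrays of different number and group r ran from -0.782 to 0.583, so the ranges overlapped. The numbers were taken as pairs, a choice made from these same data. The number as a block, 7 further settings and leaving out each of 12 arrays were the alternatives. A listed gene was represented by its brightest tested probe set. Genes named from lists were those that passed in a genotype comparison, or else the widest 2 or 3 of a list; Slc17a6, Tmem119 and Bcl11a were named after their values were seen. For each probe set of Bcl11b and Fibcd1 the 5 most like and the 3 most opposite probe sets were named. The members and lists were chosen with earlier results of these data known. The number of arrays limits the precision.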

Additional observations from a re-analysis of the deposited data

How the results depend on the processing

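All 3 genotype differences of Bcl11b 116568_at, Bcl11b 117168_at and Fibcd1 stayed below 0 in every setting and in each of the 12 fits without 1 array. The averaged difference of Bcl11b 116568_at, outside the threshold in the reported fit, passed at -0.84 with median centring (adjusted p = 0.0193), quantile normalization (0.0331), a filter of 5 (0.0458), no trend (0.0494), the replicate block (0.00319) and the block with quantile normalization (0.00472), and at -0.90 without number 1 (0.00881). Its saline difference of -0.91 passed with the block alone (0.0423; 0.0663 at -0.88 with the block and quantile normalization). Fibcd1 averaged passed at -0.61 with the block (0.0328) and at -0.59 without number 1 (0.0337). Without number 1, kainate also passed for Fibcd1 in labelled mutant (0.60), control (0.58) and all arrays (0.59), for 117168_at in all arrays (0.65) and for 109517_at in control arrays (0.54). The block changed no other call of these probe sets.

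Differences near 0 changed sign. For 109517_at the kainate difference in labelled mutant arrays was 0.02 with median centring and 0.05 with quantile normalization, the block with it, or number 1 left out, and its saline genotype difference was -0.03 with quantile normalization, with or without the block. For 116568_at the kainate difference in control arrays was 0.01 (median centring), 0.03 (quantile normalization, with or without the block) and 0.06 (number 1 left out). The difference of responses of Fibcd1 was 0.02 without number 1.

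Without 1 array at a time, the averaged genotype difference of 116568_at ran from -0.95 to -0.75 and passed only without labelled mutant saline array 1 (adjusted p = 0.0269), and that of Fibcd1 ran from -0.70 to -0.52 and never passed. Ranges that crossed 0, none of them passing, were, for 116568_at, -0.10 to 0.32 (kainate in labelled mutant arrays), -0.17 to 0.10 (in control arrays), -0.07 to 0.14 (averaged) and -0.05 to 0.37 (difference of responses). For 109517_at they were -0.14 to 0.16 (kainate in labelled mutant arrays) and -0.08 to 0.15 (genotype with saline). The difference of responses ran from -0.23 to 0.30 for 117168_at and -0.28 to 0.09 for Fibcd1.

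Over all probe sets, the number that passed for kainate in labelled mutant arrays (11) was 23 with the block, 21 with the block and quantile normalization, 596 without number 1 and 6 to 17 without 1 array. In control arrays (10) it was 37, 26, 637 and 4 to 14. For kainate averaged (26) it was 483, 372, 1412 and 14 to 243, and 43 with median centring. For genotype with saline (0) it was 9, 1, 5 and 0 to 1. For genotype after kainate (4) it was 7, 8, 12 and 1 to 5, and 1 with median centring. For genotype averaged (16) it was 147, 125, 46 and 3 to 16, with 28 under median centring and 25 under quantile normalization. No value exists for 109517_at under the filter of 5. The median of the fibrinogen-like domain list was 0.28 under that filter. The cause of these shifts was not tested. Arrays, 3 per group, limit the precision.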

Other observations

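Probe sets nearest in pattern to the third Bcl11b probe set, 109517_at, which has little signal, were those of Ap3s2 (r = 0.932 over 12 arrays with the number means taken off), Pagr1a (0.929), the proteasome subunit gene Psmb1 (0.921), Adgrf5 (0.911) and Taz (0.909), at 0.685, 0.866, 0.946, 0.91 and 0.91 as deposited. Most opposite to it were Pgam5 (-0.948), Sec22b (-0.924) and Ypel2 (-0.916), at -0.663, -0.943 and -0.882 as deposited. Their averaged genotype differences lay between -0.10 and 0.35 and none passed. The Bcl11b probe set 116568_at ranked 1694th of 5924 in likeness to 109517_at (r = 0.396, and 0.0843 as deposited). Most opposite to Bcl11b 117168_at were Glul, the astrocytic glutamine synthetase gene (r = -0.966, but 0.406 in the values as deposited), Sema6d (-0.961, as deposited -0.864) and Mapk1ip1l (-0.955, as deposited -0.772).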
